A study of Mus musculus with 24 samples.

Results

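Phagocytes recognise dying cells through receptors for phosphatidylserine, a lipid that apoptotic cells expose, or through soluble bridging proteins that hold the dying cell and the receptor together. A set of 8 such genes was followed in sorted mouse blood monocytes, chosen by gene name out of the 53715 genes of the deposited table. They comprise the receptor tyrosine kinases Mertk and Axl with their ligands Gas6 and Pros1, the scavenger receptors Cd36 and Stab1, the bridging protein Mfge8, and the phosphatidylserine receptor Timd4. Of the 8 genes, 6 reached a value of 50 in at least 1 library and entered the tests, together with 11230 genes in all, and Gas6 and Timd4 did not.

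The study asked how the cell surface receptor NOTCH2 shapes the fate of monocytes in peripheral blood (PB) during systemic inflammation. All mice were 8 to 10 weeks old and on a C57BL/6 background. Mice with conditional deletion of Notch2 in myeloid cells (N2ΔMy, Lyz2-Cre with loxP-flanked Notch2 alleles) were compared with wild type (wt) controls. Cells were sorted by green fluorescent protein expressed from the Cx3cr1 gene in both genotypes. Per the study's methods, the gates of both subsets took CD11b+ CD115+ cells without lineage markers or MHC-II, which is meant to leave out granulocytes and MHC-II+ dendritic cells. The Lyz2 promoter drives Cre across the myeloid lineage, so that deletion was not restricted to one monocyte subset. Imiquimod (IMQ), an agonist of the RNA sensor TLR7, was applied to depilated skin as 50 mg per day of a creme holding 5% IMQ, and a Sham creme served as control. Cells were sorted on day 5. There were 6 groups of 4 libraries: Ly6Chi monocytes of both genotypes after Sham, Ly6Chi monocytes of both genotypes after IMQ, and Ly6Clo monocytes of both genotypes after IMQ. Sham-treated Ly6Clo monocytes were not analysed here. The labels do not say whether the 4 replicates of a group were separate mice, so that p-values measure the spread between these libraries only.

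Blood holds classical Ly6Chi monocytes, which leave for inflamed tissue and can become macrophages there, and Ly6Clo monocytes, which arise from Ly6Chi cells and patrol the vessel wall. MERTK binds the vitamin K-dependent proteins Gas6 and protein S, which attach to phosphatidylserine, and AXL binds Gas6. MERTK is a classical uptake receptor of mature macrophages. AXL is the relative that is usually linked to inflammatory settings, and CD36 takes up oxidised lipoproteins as well as dying cells.

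Values were normalised counts, which the authors had corrected for library size. Their sums ran from 13273508 to 14651770 over the 24 libraries, and the reads behind them, inferred from the step between low values, from 9522586 to 19759716. Library numbers fell into 2 separate series, replicates 1 and 2 in the first and replicates 3 and 4 in the second, and the median inferred depth was 15588134 reads in the first and 11942688 in the second. The targeted gene Notch2 lay between 12656 and 20005 in the 12 wt libraries and between 7240 and 11518 in the 12 N2ΔMy libraries, with no overlap. Notch2 reads remained in N2ΔMy cells, and with 1 value for the whole gene, reads outside the deleted part and incomplete deletion cannot be told apart. The study itself reports partial targeting of Notch2 in Ly6Chi monocytes, by flow cytometry as well as by transcripts. Hes1, a target of Notch signalling, was 699 ± 85.9 in wt and 310 ± 48.7 in N2ΔMy Ly6Clo monocytes (SD, n = 4 each).

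The sorted subsets matched their defining genes. Summed over 5 Ly6Chi monocyte genes (Ly6c2, Ccr2, Vcan, F13a1, Chil3), values were 52081 to 92459 in the Ly6Chi libraries, 1872 to 4021 in wt Ly6Clo libraries and 9201 to 13648 in N2ΔMy Ly6Clo libraries. Summed over 7 Ly6Clo monocyte genes (Nr4a1, Ace, Itgal, Treml4, Spn, Itgax, Pou2f2), values were 148765 to 170953 in wt and 83389 to 100983 in N2ΔMy Ly6Clo libraries. Thus the N2ΔMy Ly6Clo libraries had lower levels of the subset's own genes than the wt Ly6Clo libraries and higher levels of Ly6Chi genes.

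To determine which of the 8 genes depended on genotype, subset or treatment, groups were compared by limma on log2(value + 1). A gene was called where p, adjusted by Benjamini and Hochberg's method over all 11230 genes, was at most 0.05 and the groups differed by at least 0.6 on the log2 scale, which understates changes of genes with very low values. Differences over the 6 groups were significant by limma's F-test (adjusted p up to 0.01) for 5 of the 6 tested members (Mertk, Axl, Cd36, Mfge8 and Stab1), against 43.0% of all tested genes. The largest genotype differences were seen in Ly6Clo monocytes after IMQ, where 4 of 6 tested members (Mertk, Stab1, Cd36 and Axl) were called and all were higher in N2ΔMy. In that comparison 4.78% of all tested genes were called, 3.12% being higher in N2ΔMy. Mertk entered the tests only through the N2ΔMy Ly6Clo libraries, as it was at most 36 in the other 20, so that the count over tested members partly follows from the filter on low values. Gas6 and Timd4 were not tested.

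Neither genotype comparison in Ly6Chi monocytes gave a called member in these unpaired fits. With the replicate number as a block, Cd36 was called after IMQ (limma adjusted p = 0.00481), where 0.481% of all tested genes were called. The unpaired counts were as follows. After Sham, 0 of 6 were called against 0.0178% of all tested genes (2 genes, with 585 genes at an unadjusted p under 0.05). After IMQ, 0 of 6 were called against 0.0267% (3 genes, with 679 at an unadjusted p under 0.05). IMQ against Sham gave 4 called members of 6 in wt Ly6Chi monocytes, where 9.49% of all tested genes were called, and 4 of 6 in N2ΔMy Ly6Chi monocytes, where 8.7% were called. Between Ly6Clo and Ly6Chi monocytes after IMQ, 4 of 6 were called in wt (24.6% of all tested genes) and 4 of 6 in N2ΔMy (17.4%). The N2ΔMy count includes Mertk and so, too, partly follows from the filter on low values. These comparisons share libraries, so that their counts are not independent of each other.

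**Figure D1:**
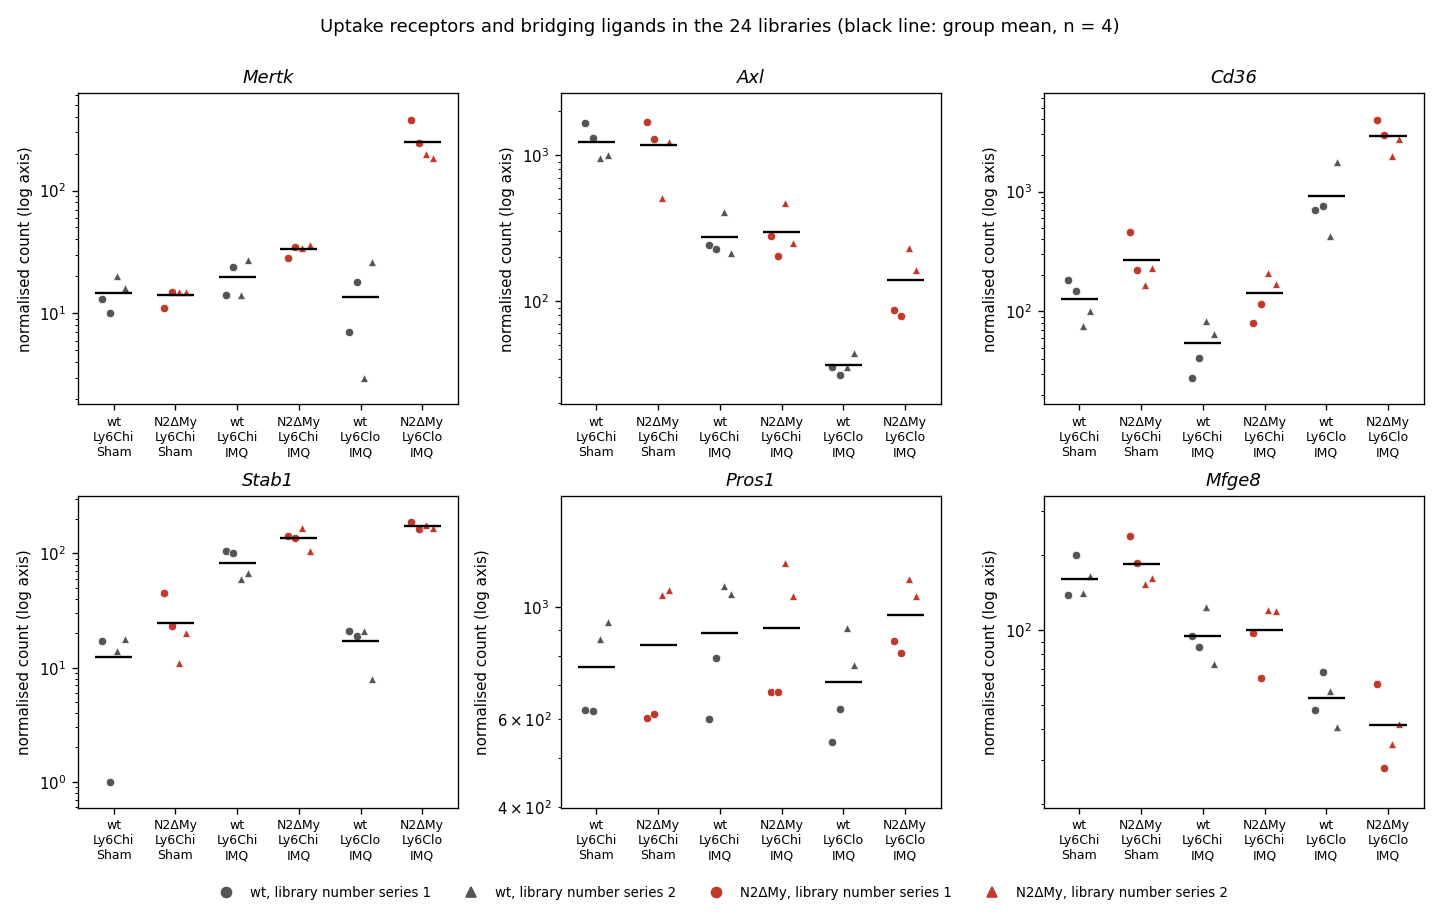
Normalised counts of the tested members in each of the 24 libraries on a log axis, by group, with wt in grey, N2ΔMy in red, circles for replicates 1 and 2, triangles for replicates 3 and 4 and a black line at the group mean. Mertk sits between 184 and 376 in the N2ΔMy Ly6Clo libraries and at 36 or less in every other library, whereas Axl is highest in the Sham-treated Ly6Chi libraries.

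The sequences just upstream of the 4 genes that rose in N2ΔMy Ly6Clo monocytes are shown because these genes share that difference, though not their direction in the other comparisons, and no binding was measured at them. They were taken from RefSeq (GRCm38.p6), all 8 members having an entry, and end at the base before the RefSeq start site. They were searched on both strands for AGGTCA (the core of nuclear receptor sites), AAAGGTCA (a site of NR4A receptors, which holds the former), TGANTCA (AP-1), TGGGAA (RBPJ, the DNA-binding partner of Notch), TGCTGA (part of the site of MAF factors) and GAGGAA (PU.1). Capitals mark the matches. The Mertk sequence is chr2:128698665-128698914 (+ strand), the Axl sequence chr7:25788734-25788983 (- strand), the Cd36 sequence chr5:17835897-17836146 (- strand) and the Stab1 sequence chr14:31168642-31168891 (- strand).
Mertk: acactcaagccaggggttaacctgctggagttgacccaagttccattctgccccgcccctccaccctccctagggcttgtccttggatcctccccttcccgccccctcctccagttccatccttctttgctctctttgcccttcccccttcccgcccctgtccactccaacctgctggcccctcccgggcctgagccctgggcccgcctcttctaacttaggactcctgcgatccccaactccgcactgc
Axl: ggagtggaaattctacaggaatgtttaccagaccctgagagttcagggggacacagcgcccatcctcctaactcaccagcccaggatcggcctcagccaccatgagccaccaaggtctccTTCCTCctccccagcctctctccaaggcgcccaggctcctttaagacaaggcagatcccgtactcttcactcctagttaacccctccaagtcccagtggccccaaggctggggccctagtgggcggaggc
Cd36: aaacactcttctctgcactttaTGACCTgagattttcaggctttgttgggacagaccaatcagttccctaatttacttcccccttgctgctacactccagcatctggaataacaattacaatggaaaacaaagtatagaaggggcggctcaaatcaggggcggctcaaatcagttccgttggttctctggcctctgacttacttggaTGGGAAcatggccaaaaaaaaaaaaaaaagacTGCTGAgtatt
Stab1: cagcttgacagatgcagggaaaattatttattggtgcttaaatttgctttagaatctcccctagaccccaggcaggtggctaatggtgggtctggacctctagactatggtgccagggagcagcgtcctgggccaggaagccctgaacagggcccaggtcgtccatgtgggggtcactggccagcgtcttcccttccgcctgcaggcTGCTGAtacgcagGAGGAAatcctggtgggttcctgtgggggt

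None of these 4 sequences overlapped an annotated exon, and the Cd36 start used by RefSeq lies inside the span that the annotation gives for the gene. The Mertk sequence held 0 of the 6 motifs at 63.6% G and C. The Axl sequence held a reversed PU.1 match beginning 130 bases before the start site. The Cd36 sequence held a reversed AGGTCA match at -228, an RBPJ match at -43 and a MAF match at -11, and the Stab1 sequence held a MAF match at -43 and a PU.1 match at -30. None of the 6 motifs was held by all 4 sequences. In 32851 promoters of the same length, the shares holding a match were 14.0% for AGGTCA, 21.6% for TGGGAA, 16.1% for TGCTGA and 23.3% for GAGGAA. Over the 8 members, 2, 2, 3 and 3 sequences held these motifs, and TGANTCA (6.75% of promoters) and AAAGGTCA (1.34%) were not found in the windows of the members.

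Mertk (chr2:128698956-128802894, + strand, 19 merged exon blocks) encodes the receptor tyrosine kinase MERTK, which tethers and engulfs cells coated with Gas6 or protein S. In N2ΔMy Ly6Clo monocytes after IMQ, replicates 1 to 4 had normalised counts of 376, 245, 197 and 184. The wt Ly6Clo replicates had 7, 18, 3 and 26. All 4 N2ΔMy libraries lay far above all 4 wt libraries, with a mean of 250.5 ± 87.7 against 13.5 ± 10.5 (SD, n = 4 each), a ratio of 18.6. The difference was 4.41 on the log2 scale (SE 0.547, limma adjusted p = 0.00113). The exact permutation test gave p = 0.0286, the smallest that 70 splits of 4 against 4 allow. It was 4.63 within the first library number series and 4.20 within the second. In wt replicate 3, where 1 read has a value of 1.328, the Mertk value of 3 corresponds to 2 reads, so that the precision of the wt mean is limited by counting.

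In Ly6Chi monocytes Mertk was low throughout. After Sham the wt replicates had 13, 10, 20 and 16 and the N2ΔMy replicates 11, 15, 15 and 15, and the ranges overlapped. After IMQ the wt replicates had 14, 24, 14 and 27 and the N2ΔMy replicates 28, 35, 34 and 36. All N2ΔMy values lay above all wt values after IMQ, at a mean of 33.3 ± 3.59 against 19.8 ± 6.75 (n = 4 each), but the gene was not called (log2 difference 0.78, SE 0.314, limma adjusted p = 0.775; exact permutation p = 0.0286). Within N2ΔMy Ly6Chi monocytes the IMQ libraries were 2.38 times the Sham libraries (log2 difference 1.20, SE 0.289, limma adjusted p = 0.0217). The last call was lost on leaving out N2ΔMy Sham replicate 1 or N2ΔMy IMQ replicate 2 or 4 (adjusted p of up to 0.0672), when all 24 libraries were fitted together (adjusted p = 0.0632), and within the first (adjusted p = 0.142) and second library number series (adjusted p = 0.125). The response to IMQ did not differ detectably between the genotypes for Mertk (log2 difference in wt 0.38, SE 0.397; interaction 0.82, SE 0.443, limma adjusted p = 1.0).

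Mertk differed between the subsets in N2ΔMy, where Ly6Clo libraries were 7.53 times the Ly6Chi libraries after IMQ (log2 difference 2.82, SE 0.251, limma adjusted p = 1.46e-05). In wt the Ly6Clo and Ly6Chi ranges overlapped (log2 difference -0.82, SE 0.631, limma adjusted p = 0.349), with 3 and 7 in wt Ly6Clo replicates 3 and 1 and 26 in replicate 4. Without wt Ly6Clo replicate 3 the log2 difference was -0.32, and without replicate 4 it was -1.23. The genotype difference was larger in Ly6Clo than in Ly6Chi monocytes by 3.64 (interaction, SE 0.667, limma adjusted p = 0.0103). For Mertk this call was kept in 25 of 27 alternative fits and was lost with no filter on low values (adjusted p = 0.0517) and within the second library number series (3.39, adjusted p = 0.432). Mertk and Stab1 were the members called for this interaction, 2 of 6, against 1.03% of all tested genes. Mertk entered the tests only through the N2ΔMy Ly6Clo libraries, so that this count, too, partly follows from the filter on low values. The interaction of genotype and treatment in Ly6Chi monocytes gave 0 of 6 members and 0.0% of all tested genes (177 genes at an unadjusted p under 0.05). In the order of levels, N2ΔMy Ly6Clo cells stood above N2ΔMy Ly6Chi cells after IMQ, which stood above wt Ly6Chi cells after IMQ, each without overlap with the next, and the groups below overlapped.

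Axl (chr7:25757273-25788705, - strand, 19 merged exon blocks) encodes the related kinase AXL, which binds Gas6. Its highest values were in Ly6Chi monocytes after Sham, with 1669, 1322, 951 and 1002 in wt and 1681, 1300, 511 and 1231 in N2ΔMy. After IMQ the wt Ly6Chi replicates had 241, 228, 409 and 214 and the N2ΔMy replicates 277, 203, 469 and 249. Every Sham library was above every IMQ library of its genotype. Axl fell by 2.19 on the log2 scale in wt (4.53-fold lower mean, SE 0.229, limma adjusted p = 0.000215) and fell by 1.92 in N2ΔMy (3.94-fold lower mean, SE 0.359, limma adjusted p = 0.00596). The N2ΔMy call was kept in 17 of 19 alternative fits and was lost with no filter on low values (adjusted p = 0.0763) and within the second library number series (log2 difference -1.21, adjusted p = 0.129, against -2.63 within the first). Genotypes overlapped in both Ly6Chi conditions, with log2 differences under 0.3 in size, and the interaction of genotype and treatment was 0.26 for Axl (SE 0.468, limma adjusted p = 1.0).

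Ly6Clo monocytes had the lowest Axl means, though the N2ΔMy range overlapped those of Ly6Chi monocytes after IMQ. The wt replicates had 35, 31, 35 and 44 and the N2ΔMy replicates 87, 79, 230 and 162, without overlap. Axl was 3.85 times as high in N2ΔMy as in wt (139.5 ± 71.0 against 36.3 ± 5.50, n = 4 each; log2 difference 1.79, SE 0.347, limma adjusted p = 0.0124; exact permutation p = 0.0286). N2ΔMy replicates 3 and 4 were the higher ones, and the log2 difference was 1.31 within the first library number series and 2.27 within the second. Summed conventional dendritic cell genes were also higher in these 2 libraries, at 9784 and 4550 in N2ΔMy replicates 3 and 4 against 1085 and 1175 in replicates 1 and 2, and 428, 564, 1752 and 167 in the wt replicates. Their part in the Axl difference was not tested. The Axl call was kept in 17 of 19 alternative fits and was lost within the first series (adjusted p = 0.0709) and with no filter on low values (adjusted p = 0.101).

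Hence the higher Axl in N2ΔMy Ly6Clo monocytes still lay below the Sham-treated Ly6Chi level. Relative to Ly6Chi cells after IMQ, Axl in Ly6Clo cells was lower in wt (7.53-fold lower mean, log2 difference -2.84, SE 0.24, limma adjusted p = 7.93e-06). In N2ΔMy the Ly6Clo mean was 2.15-fold lower (log2 difference -1.16, SE 0.354, limma adjusted p = 0.0343), with overlapping ranges and an exact permutation p of 0.0571. This N2ΔMy call was lost on leaving out N2ΔMy Ly6Chi IMQ replicate 1, 3 or 4 or N2ΔMy Ly6Clo replicate 1 or 2 (adjusted p of up to 0.0944) and under 3 other alternatives, being kept in 11 of 19. The interaction of genotype and subset was 1.68 for Axl (SE 0.458, limma adjusted p = 0.114) and became a called one when the replicate number entered as a block (SE 0.316, adjusted p = 0.00589), a fit in which 2.41% of all tested genes were called.

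The ligands of MERTK and AXL were not called in any comparison. Pros1 (chr16:62854307-62929346, + strand), which encodes protein S, a cofactor of anticoagulation and ligand of MERTK, was detected in all 24 libraries. The group means ran from 711.5 ± 162 in wt Ly6Clo monocytes to 966.3 ± 158 in N2ΔMy Ly6Clo monocytes (n = 4 each), and ranges of all neighbouring groups overlapped. In wt Ly6Clo replicates 1 to 4 the values were 540, 628, 910 and 768, and in N2ΔMy Ly6Clo replicates 856, 811, 1142 and 1056. Pros1 was not called between them (log2 difference 0.45, SE 0.174, limma adjusted p = 0.176).

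Pros1 instead varied with the library number series. Replicates 1 and 2 of all groups lay between 540 and 856 (median 626, n = 12) and replicates 3 and 4 between 768 and 1229 (median 1058.5, n = 12). In a fit blocked on replicate number, the F-test over the 6 groups was passed by Pros1 too (adjusted p = 0.00158), making 6 of 6 members against 57.1% of all tested genes. Its Ly6Clo genotype difference then had an adjusted p of 0.00502 and stayed below the size asked for a call. Gas6 (chr8:13465374-13494490, - strand), the other ligand, was above 0 in 6 of 24 libraries with a highest value of 6, and was 0 in all 8 Ly6Clo libraries, so that differences in it were not detectable at this depth.

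Cd36 (chr5:17781690-17888801, - strand) encodes the scavenger receptor CD36, which cooperates with αv integrins in the binding of dying cells. Its highest values were in Ly6Clo monocytes after IMQ. The wt replicates had 698, 761, 424 and 1761 and the N2ΔMy replicates 3980, 2934, 1969 and 2757. The lowest N2ΔMy library was above the highest wt library, wt replicate 4, and the means were 2910 ± 828 and 911 ± 585 (n = 4 each), a ratio of 3.19. The log2 difference was 1.83 (SE 0.365, limma adjusted p = 0.0141; exact permutation p = 0.0286), with 2.23 in the first and 1.43 in the second library number series. Leaving out wt Ly6Clo replicate 1 moved the adjusted p to 0.0515, and no other left-out library lost the call. Without wt replicate 4 the log2 difference was 2.21. The Cd36 call was also lost within the second series (adjusted p = 0.277), with no filter on low values (adjusted p = 0.176) and without a trend in the variance (adjusted p = 0.052).

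In Ly6Chi monocytes Cd36 was lower than in the Ly6Clo monocytes of the same genotype. After Sham the wt replicates had 182, 149, 76 and 100 and the N2ΔMy replicates 462, 223, 167 and 230. After IMQ the wt replicates had 28, 41, 84 and 65 and the N2ΔMy replicates 80, 115, 211 and 170. The genotypes overlapped in both conditions, in each by a single N2ΔMy library that lay below the highest wt library. The mean was 2.13 times as high in N2ΔMy after Sham (log2 difference 1.06, SE 0.348, limma adjusted p = 0.921) and 2.64 times as high after IMQ (log2 difference 1.41, SE 0.392, limma adjusted p = 0.587; exact permutation p = 0.0571 each). Blocking on replicate number, the difference after IMQ was called (SE 0.183, adjusted p = 0.00481). In that fit 0.481% of all tested genes were called. After Sham the blocked fit gave no call (adjusted p = 0.103).

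Ly6Clo monocytes had 16.7 times the Cd36 of Ly6Chi monocytes in wt after IMQ (log2 difference 3.96, SE 0.427, limma adjusted p = 4.32e-05) and 20.2 times in N2ΔMy (log2 difference 4.38, SE 0.289, limma adjusted p = 1.99e-06). The genotype difference was not shown to vary with the subset for Cd36 (interaction 0.42, SE 0.572, limma adjusted p = 0.999). IMQ against Sham gave a lower Cd36 in wt Ly6Chi monocytes (2.33-fold lower mean, log2 difference -1.24, SE 0.378, limma adjusted p = 0.0489). The ranges overlapped, and the log2 difference was -2.25 within the first library number series and -0.24 within the second. Leaving out wt Sham replicate 1, 2 or 4 or wt IMQ replicate 1, 2 or 4 lost this call (adjusted p of up to 0.132). The wt call was kept in 7 of 19 alternative fits. In N2ΔMy the Cd36 difference pointed the same way without being called (1.88-fold lower mean, log2 difference -0.89, SE 0.358, limma adjusted p = 0.139), at -1.73 within the first series, where it was called (adjusted p = 0.0336), and -0.049 within the second. The response of Cd36 to IMQ was not shown to differ between the genotypes (interaction 0.35, SE 0.558, limma adjusted p = 1.0).

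Stab1 (chr14:31139013-31168641, - strand, 58 merged exon blocks) encodes stabilin-1, a large scavenger receptor that binds phosphatidylserine and is typical of tissue macrophages and sinusoidal endothelium. In Ly6Clo monocytes after IMQ the wt replicates had 21, 19, 21 and 8 and the N2ΔMy replicates 187, 164, 176 and 168. The N2ΔMy replicates were close to each other and far above all wt replicates, with a mean of 173.8 ± 10.1 against 17.3 ± 6.24 (n = 4 each), a ratio of 10.1. The log2 difference was 3.34 (SE 0.321, limma adjusted p = 0.000258; exact permutation p = 0.0286), with 3.07 and 3.62 in the first and second library number series.

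Stab1 also rose with IMQ in Ly6Chi monocytes. After Sham the wt replicates had 17, 1, 14 and 18 and the N2ΔMy replicates 45, 23, 11 and 20. After IMQ the wt replicates had 105, 101, 60 and 67 and the N2ΔMy replicates 142, 136, 166 and 105. All IMQ libraries lay above all Sham libraries in both genotypes. The means were 6.66 times as high in wt (log2 difference 3.02, SE 0.661, limma adjusted p = 0.0109) and 5.55 times as high in N2ΔMy (log2 difference 2.57, SE 0.378, limma adjusted p = 0.00161). In wt the log2 difference was 2.25 without Sham replicate 2, which had a value of 1, and it was 4.12 within the first library number series and 1.93 within the second (adjusted p = 0.0525). The wt call was also lost with no filter on low values (adjusted p = 0.102). The genotypes overlapped in both Ly6Chi conditions (IMQ log2 difference 0.74, SE 0.237, limma adjusted p = 0.622; Sham 1.19, SE 0.738, adjusted p = 0.941). Without wt Sham replicate 2 the Sham difference was 0.41.

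The subset difference of Stab1 depended on genotype. In wt, Ly6Clo monocytes had 4.83-fold lower Stab1 than Ly6Chi monocytes after IMQ (log2 difference -2.25, SE 0.374, limma adjusted p = 0.000813), whereas in N2ΔMy the ranges overlapped (log2 difference 0.35, SE 0.176, limma adjusted p = 0.167). The interaction was 2.61 (SE 0.396, limma adjusted p = 0.00218), and for Stab1 it was not called with all 24 libraries in 1 fit (adjusted p = 0.0818) or within the second library number series (adjusted p = 0.272). Of the 10288 exonic bases of Stab1, 112 are shared with Nt5dc2 on the opposite strand, and the strand setting used in counting is not given in the sources used here. Nt5dc2 means were 12.5 in wt and 89.0 in N2ΔMy Ly6Clo monocytes, and 240.8 in wt Ly6Chi monocytes after IMQ against 69.5 after Sham, and the part of shared reads in Stab1 was not tested.

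**Figure D2:**
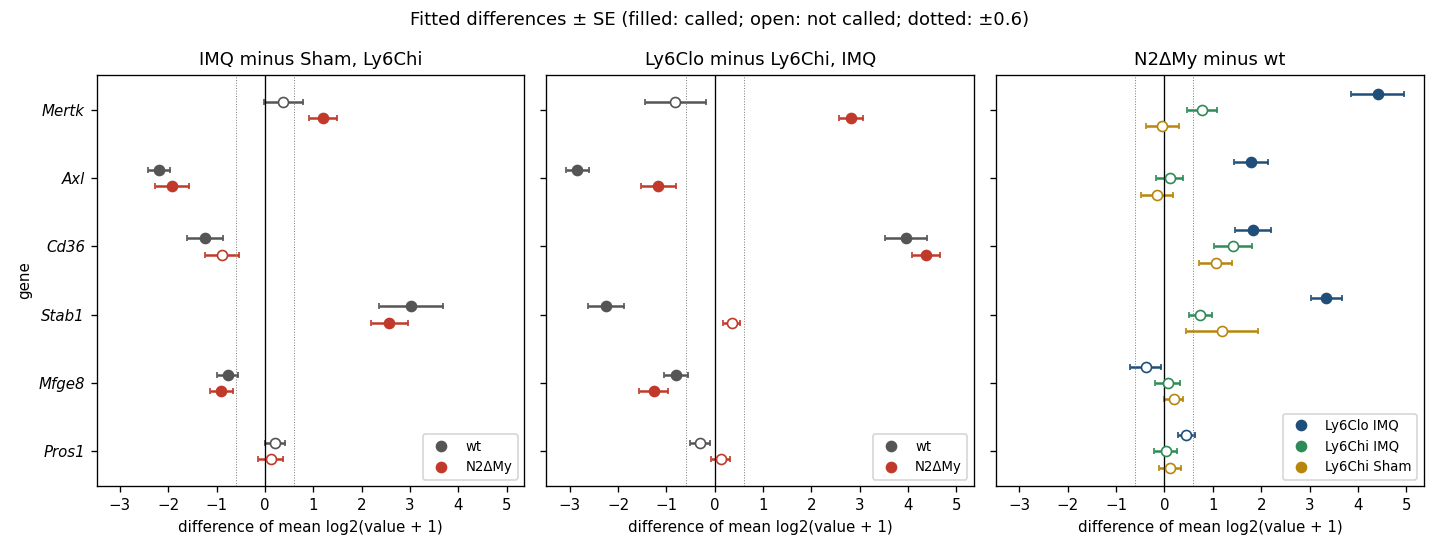
Log2 differences of the 6 tested members with their standard errors, by comparison, filled where the gene was called and open where it was not, with wt in grey and N2ΔMy in red for treatment and subset, and Ly6Clo IMQ in blue, Ly6Chi IMQ in green and Ly6Chi Sham in ochre for genotype. In Ly6Clo monocytes Mertk (4.41), Stab1 (3.34), Cd36 (1.83) and Axl (1.79) are called on the N2ΔMy side, whereas no member is filled in the genotype comparisons of Ly6Chi monocytes.

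Mfge8 (chr7:79133768-79149060, - strand) encodes a secreted protein that links phosphatidylserine to αv integrins. It fell with IMQ and was lower still in Ly6Clo monocytes, without a called genotype difference. The wt Ly6Chi replicates had 138, 200, 141 and 165 after Sham and 95, 86, 124 and 73 after IMQ. The N2ΔMy Ly6Chi replicates had 238, 186, 153 and 162 after Sham and 97, 64, 120 and 119 after IMQ. Sham and IMQ libraries did not overlap in either genotype, with a 1.70-fold lower mean after IMQ in wt (log2 difference -0.77, SE 0.211, limma adjusted p = 0.0307) and a 1.85-fold lower mean in N2ΔMy (log2 difference -0.90, SE 0.239, limma adjusted p = 0.0323). Both calls were close to the threshold. Leaving out wt Sham replicate 2 or 4 or wt IMQ replicate 1, 2 or 4 lost the wt call (adjusted p of up to 0.0914), and leaving out N2ΔMy Sham replicate 1, 2 or 4 or N2ΔMy IMQ replicate 1 or 2 lost the N2ΔMy call (up to 0.0907). The calls were kept in 11 of 19 alternative fits in wt and in 12 in N2ΔMy. Between genotypes the Mfge8 log2 difference in Ly6Chi monocytes was 0.19 after Sham (limma adjusted p = 0.956), and the interaction of genotype and treatment was -0.13 (adjusted p = 1.0).

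In Ly6Clo monocytes Mfge8 was 48, 68, 57 and 41 in wt and 61, 28, 35 and 42 in N2ΔMy, and the ranges overlapped (log2 difference -0.39, SE 0.311, limma adjusted p = 0.564). Mfge8 was thus the tested member whose mean was lower in N2ΔMy Ly6Clo monocytes, without passing the test. Against Ly6Chi monocytes after IMQ the Ly6Clo mean was 1.77-fold lower in wt (log2 difference -0.81, SE 0.25, limma adjusted p = 0.0272) and 2.41-fold lower in N2ΔMy (log2 difference -1.26, SE 0.308, limma adjusted p = 0.0117). The wt call was lost without wt Ly6Chi IMQ replicate 1, 2 or 3 or wt Ly6Clo replicate 1 or 4 (adjusted p of up to 0.0835) and was kept in 11 of 19 alternative fits, against 17 of 19 in N2ΔMy.

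Timd4 (chr11:46810800-46844332, + strand), whose product TIM-4 is typical of long-lived resident macrophages, was above 0 in 1 of 24 libraries, with a value of 4 in wt Ly6Clo replicate 2. Tyro3, the other kinase of the MERTK and AXL family, was likewise above 0 in 1 of 24 libraries, with a value of 4. Neither gene could be compared at this depth, for which 3 reads correspond to values of 2.19 to 4.23.

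Levels between genes were set side by side as the mean value per 1000 exonic bases. In wt Ly6Chi monocytes after Sham the highest mean levels were those of Axl (246 per 1000 bases) and Pros1 (186), whereas Mertk had 3.40 and Stab1 1.22. In wt Ly6Clo monocytes after IMQ they were those of Cd36 (254) and Pros1 (174), with Axl at 7.20 and Mertk at 3.11. In N2ΔMy Ly6Clo monocytes Cd36 had 811, Pros1 236, Mertk 57.8, Axl 27.7, Stab1 16.9 and Mfge8 8.84. By group mean, the Mertk level was therefore above the Axl level in N2ΔMy Ly6Clo monocytes and below it in the other 5 groups. In N2ΔMy Ly6Clo replicate 3 the value before division by length was 197 for Mertk (4336 bases) and 230 for Axl (5033 bases).

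Other cell types of the sort gate were looked for beside these results, as the higher uptake receptors came with other changes in N2ΔMy Ly6Clo libraries. Of 11 macrophage genes, 9 were tested and 7 were higher in N2ΔMy than in wt Ly6Clo monocytes, with 1 lower. Of the 7, C1qa, C1qc and Cd5l passed the filter on low values only through the N2ΔMy Ly6Clo libraries. The lower one was Spic (log2 difference -1.58, limma adjusted p = 0.00552). Summed over the 11 macrophage genes, values were 5841 to 7778 in wt and 13078 to 17446 in N2ΔMy Ly6Clo libraries. They were 7361 to 9982 in the Ly6Chi Sham libraries. Adgre1 held the largest part of the Ly6Clo sums (means of 5078 in wt and 7705 in N2ΔMy) and was not called (0.58, adjusted p = 0.126). Of the 5 Ly6Chi monocyte genes 4 were higher, of the 7 Ly6Clo monocyte genes 4 were lower, and of 5 tested genes of conventional dendritic cells 0 were called (sums of 167 to 1752 in wt and 1085 to 9784 in N2ΔMy). Of 4 tested neutrophil genes 1 was higher (sums of 34 to 302 and 178 to 317). In Ly6Clo monocytes 0 of 5 tested erythroid and 0 of 3 tested platelet genes were called. Summed erythroid genes set replicate 4 of every IMQ group apart, at 753 in wt Ly6Chi, 1533 in N2ΔMy Ly6Chi, 1288 in wt Ly6Clo and 1547 in N2ΔMy Ly6Clo cells, against at most 92 in the other IMQ libraries. Wt Ly6Clo replicate 4, the library with the highest wt Cd36, also had the highest platelet sum (284). Within the first library number series, which holds no replicate 4, 3 of 6 tested members (Mertk, Stab1 and Cd36) were called in Ly6Clo monocytes. In that fit 620 of 11230 genes were called in all. Within the second series, which holds replicate 4, 3 of 6 (Mertk, Stab1 and Axl) were called, with 180 genes in all. The part of erythroid or platelet RNA in these calls was not tested. Summed B cell genes reached at most 168, endothelial genes 41, NK cell genes 28 and T cell genes 8 in any library.

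Over the Ly6Chi libraries of both genotypes, Mertk was at most 36, Cd36 at most 462, Axl 203 to 1681 and Stab1 1 to 166. In the N2ΔMy Ly6Clo libraries they were 184 to 376, 1969 to 3980, 79 to 230 and 164 to 187. In bulk libraries, more cells of one kind and more RNA per cell cannot be told apart. The part of macrophage, dendritic or Ly6Chi cells in the genotype differences of Ly6Clo monocytes was not tested. The Ly6Clo gate as described leaves out MHC-II+ cells. Yet the MHC-II gene H2-Ab1, which is part of the dendritic cell sums, was detected in all Ly6Clo libraries. It was 84 to 1230 in wt and 779 to 8158 in N2ΔMy and was not called (log2 difference 2.69, limma adjusted p = 0.103). For the IMQ comparisons in Ly6Chi monocytes, 3 of 4 tested neutrophil genes were higher in each genotype, and their sums had medians of 1028 after Sham and 3457.5 after IMQ in wt and of 1151 and 4912.5 in N2ΔMy. Of 5 tested dendritic cell genes 4 were lower after IMQ in each genotype (median log2 difference -2.38 in wt and -2.59 in N2ΔMy), beside the lower Axl and Mfge8. Beside the higher Stab1, of 9 tested macrophage genes 0 were higher and 3 lower after IMQ in wt. In N2ΔMy 1 was higher and 2 were lower. The Ly6Chi gate as described leaves out lineage-positive granulocytes and MHC-II+ cells. H2-Ab1 was 1289 to 2838 in the Ly6Chi Sham libraries and 230 to 604 in the Ly6Chi IMQ libraries. The part of these marker genes in the IMQ differences was not tested.

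**Figure D3:**
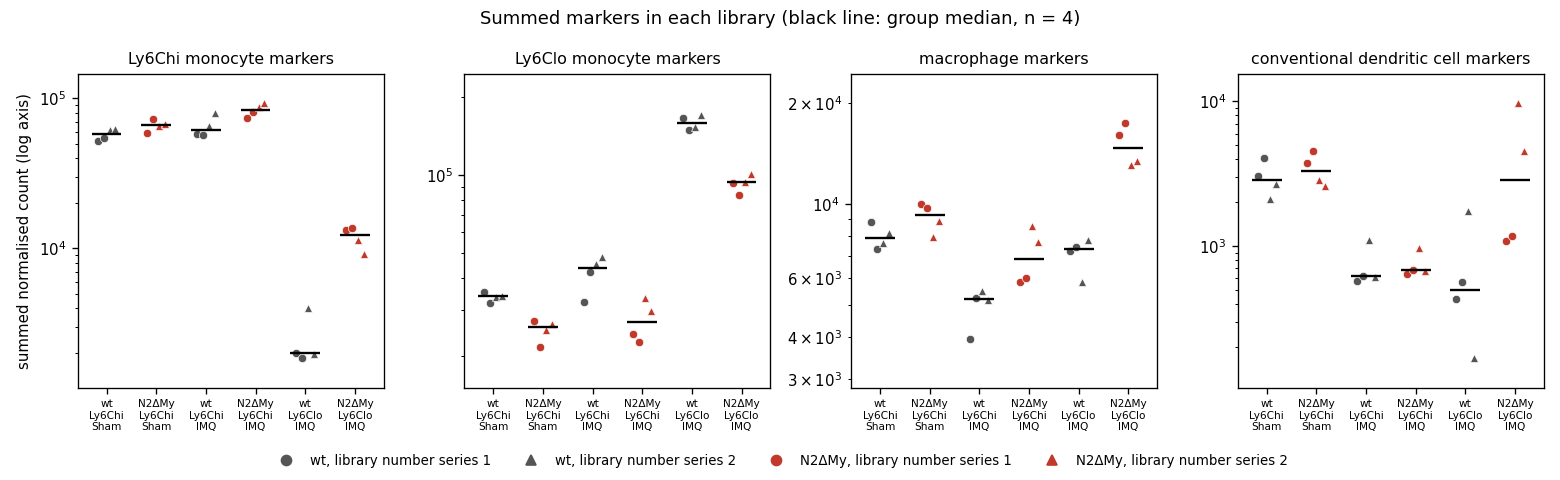
Summed normalised counts of marker genes in each of the 24 libraries on a log axis, by marker list and group, with circles for replicates 1 and 2, triangles for replicates 3 and 4 and a black line at the group median. In Ly6Clo libraries the macrophage sums are 5841 to 7778 in wt and 13078 to 17446 in N2ΔMy, and the Ly6Clo monocyte sums are 148765 to 170953 and 83389 to 100983.

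The 8 genes belong to a wider uptake machinery, for which 69 further genes in 7 lists were compared, 59 of them tested. In Ly6Clo monocytes 11 were higher and 1 lower in N2ΔMy than in wt (median log2 difference 0.20), against 3.12% higher and 4.78% called of all tested genes, whereas in both Ly6Chi genotype comparisons 0 of 59 were called. The count in Ly6Clo monocytes holds 3 genes (C1qa, C1qc and S1pr1) that passed the filter only through the N2ΔMy Ly6Clo libraries. Between wt Ly6Clo and Ly6Chi monocytes after IMQ, 12 were higher and 13 lower in Ly6Clo cells (median 0.03), against 24.6% called of all tested genes.

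Among the other receptors for dying cells, 3 of 15 tested were higher and 1 was lower in N2ΔMy Ly6Clo monocytes (median -0.08). Msr1, encoding scavenger receptor A, was 61 to 82 in wt and 243 to 455 in N2ΔMy (log2 difference 2.15, limma adjusted p = 0.000571). Olr1, encoding a receptor for oxidised lipoprotein, was 19 to 73 against 101 to 253 (2.04, adjusted p = 0.0167), and Cd14, encoding a receptor for lipopolysaccharide that also binds dying cells, was 166 to 226 against 384 to 652 (1.42, adjusted p = 0.00127). All 3 receptors were lower in wt Ly6Clo than in wt Ly6Chi monocytes after IMQ (log2 differences of -3.63 for Msr1, -2.42 for Olr1 and -1.13 for Cd14). Itgb3, encoding the β3 chain of the integrin that binds Mfge8, was the member of this list that was lower, at 1432 to 2124 in wt and 647 to 716 in N2ΔMy (log2 difference -1.36, limma adjusted p = 0.000157), and it was higher in wt Ly6Clo than in wt Ly6Chi monocytes (2.74, adjusted p = 9.27e-07).

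Of the other bridging and opsonising ligands, 4 of 8 tested were higher in N2ΔMy Ly6Clo monocytes. They were the 3 chains of complement C1q, which coats dying cells, and Thbs1, encoding thrombospondin-1, a ligand of CD36. C1qb was 37 to 102 in wt and 742 to 1193 in N2ΔMy (log2 difference 3.88, limma adjusted p = 7.05e-05), C1qc 12 to 38 and 338 to 568 (4.18, adjusted p = 7.73e-05), and C1qa 0 to 26 and 203 to 305 (4.78, adjusted p = 0.00812). No C1q chain overlapped between the genotypes, and these 3 genes also stand among the macrophage genes above. C1qa and C1qc reached 50 only in N2ΔMy Ly6Clo libraries, which bears on the count of this list. Thbs1 was 46 to 158 and 144 to 604 (2.23, adjusted p = 0.0325), with overlapping ranges.

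In the same comparison, where 4.78% of all tested genes were called, the remaining lists gave 4 called genes. Of 10 tested genes of engulfment signalling 1 was higher (Dock1, a partner of ELMO in activating the GTPase RAC1; log2 difference 0.64, limma adjusted p = 0.0296). Of 10 genes of cargo processing and lipid efflux 1 was higher (Npc2, which moves cholesterol out of lysosomes; 0.66, adjusted p = 0.00335). Of 6 receptors for signals released by dying cells 2 were higher (S1pr1, 1.67, adjusted p = 0.0173, and P2ry6, 1.09, adjusted p = 0.00206), S1pr1 reaching 50 only in N2ΔMy Ly6Clo libraries. Among the nuclear receptors linked to the uptake program 0 of 6 were called, and among the enzymes that shed the receptors and the pair Sirpa and Cd47 0 of 4 were called.

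Between wt Ly6Clo and wt Ly6Chi monocytes after IMQ, where 24.6% of all tested genes were called, 5 of 15 other receptors were higher in Ly6Clo cells and 4 lower. Beside Itgb3, the higher ones included Havcr2 (1.12, limma adjusted p = 0.00201), encoding the phosphatidylserine receptor TIM-3, and the integrin chains Itgav (1.04, adjusted p = 1.11e-05) and Itgb5 (0.83, adjusted p = 0.000239). Beside Msr1, Olr1 and Cd14, Cd93 was lower (-5.34, adjusted p = 2.83e-07). Of 8 bridging ligands, C1qc was higher (2.04, adjusted p = 0.0286) and 4 were lower, namely Thbs1 (-3.97, adjusted p = 9.36e-05), Calr (-1.19, adjusted p = 0.000425), Anxa1 (-0.99, adjusted p = 0.00133) and Lgals3 (-0.87, adjusted p = 0.000238). The receptor and ligand lists thus held genes of both directions in this comparison.

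For the rest of the machinery in that wt subset comparison, 2 of 6 receptors for released signals were lower (P2ry12, -1.49, limma adjusted p = 0.0169, and P2ry6, -0.74, adjusted p = 0.00215). Elmo1 was higher (1.23, adjusted p = 1.50e-06) and Dock1 lower (-0.64, adjusted p = 0.00325) among 10 genes of engulfment signalling. The lipid efflux pumps Abcg1 (1.08, adjusted p = 5.25e-05) and Abca1 (0.75, adjusted p = 0.0058) were higher and Npc2 lower (-1.82, adjusted p = 1.28e-06). Of 6 nuclear receptor genes 2 were higher, Pparg (4.23, adjusted p = 1.40e-06) and Nr1h3 (2.32, adjusted p = 1.11e-05), encoding the lipid sensors PPARγ and LXRα. Their partner Rxra was lower (-1.16, adjusted p = 2.88e-05). Of the last list 1 of 4 was higher, Cd47 (0.62, adjusted p = 0.000469), encoding the ligand of SIRPα that inhibits uptake.

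**Figure D4:**
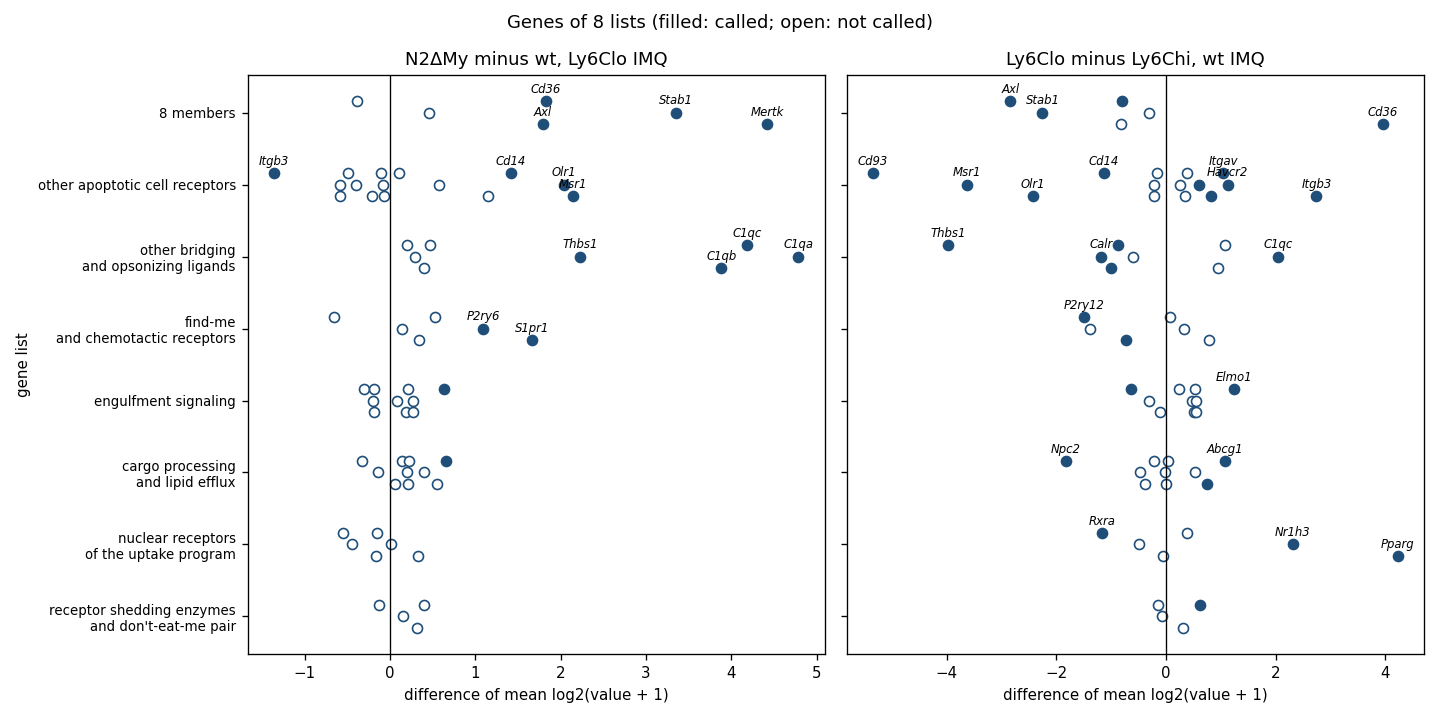
Log2 differences between N2ΔMy and wt Ly6Clo monocytes after IMQ for the members and the 7 other uptake lists, and between wt Ly6Clo and Ly6Chi monocytes after IMQ, 1 point per tested gene, filled where called. Mertk (4.41), C1qa (4.78) and C1qc (4.18) lie farthest to the N2ΔMy side, all 3 being genes that passed the filter only through the N2ΔMy Ly6Clo libraries.

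The genes whose pattern over the 24 libraries was most like each member were taken by Pearson's r of log2(value + 1) among 11229 other tested genes. For Mertk they were Dok2 (r = 0.876), Adamtsl4 (0.863) and Cd151 (0.857). For Axl they were Frmd4a (0.975), Tlr9 (0.973), which encodes a sensor of CpG DNA, and a gene with a clone name (0.967). For Stab1 they were Dagla (0.942), Klrg2 (0.909) and a gene with a clone name (0.880), and for Cd36 Epb41l1 (0.951), Fcgrt (0.949), encoding the neonatal Fc receptor, and H2-D1 (0.934). For Mfge8 they were Creb3l2 (0.919), Zfyve28 (0.919) and Ldhb (0.918). For Pros1 they were Nt5c (0.936), Emp3 (0.932) and Tbca (0.906), and after removal of the mean of each library number series these r were 0.750, 0.727 and 0.687. These values describe 24 libraries in 6 groups, which share group means, depth and library number series, and carry no test.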

How the data were processed

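Blood monocytes were sorted by flow cytometry, and total RNA libraries were made with a stranded low-input kit. Per the labels and methods, the authors aligned the reads with STAR 2.5.3a to GRCm38.p6 with GENCODE M17 after trimming with Trim Galore 0.4.4. They deposited a gene-level score for each of 24 libraries, namely counts divided by DESeq2 size factors and rounded to whole numbers. The deposited table also holds 5 columns of the authors' own comparison (log2 fold change, its standard error, Wald statistic, p-value and adjusted p-value) and a base mean, none of which was used. The labels call the controls Sham, and the methods also name them untreated or naive.

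Because values were already scaled, no count model was used. Genes reaching 50 in at least 1 library (11230 of 53715, with 25137 at 0 throughout) were compared on log2(value + 1) with limma 3.58.1 (trended eBayes) in R 4.3.3, on the groups of each comparison, with adjustment over all genes tested. Scripts were tested on simulated data. Exact permutation tests were two-sided (Python 3.11.15, scipy 1.17.1). Ratios are of group means, and levels per 1000 bases use merged exons of GENCODE. Every tested member was compared in every comparison, some differences that were not called being given only as a range or count; from the other lists up to 4 called genes a direction and list were named by size for 2 comparisons, and per member the 3 genes with the highest r. Members and lists were chosen with earlier results of these data known, and 1 marker gene is not reported here. Alternatives were another pseudocount (0.1), a floor of 1.1, no filter or a stricter one, TMM scaling, no trend, a replicate block, the library number series as covariate or alone, all libraries in 1 fit, and each library left out.

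Deviations from the group mean correlated between same-numbered libraries in all 7 comparisons of 2 groups (r of 0.16 to 0.619), and the replicate block was run as an alternative to the unpaired fits of the report. With deviations taken from the mean of each library number series within a group, r was -0.116 to 0.263, lower than with group means. Between the subsets after IMQ it was 0.206 to 0.263 in both genotypes, and it was -0.116 to 0.204 in the other comparisons. No source names a shared animal or day. The 2 most alike libraries had equal values in 4.35% of genes, so that none was a copy.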

Additional observations from a re-analysis of the deposited data

Results flagged for a closer look

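Of the 48 combinations of 8 members and 6 groups, 7 held a library whose gap to its nearest neighbour, as a share of the range of its 4 libraries, exceeded Dixon's critical value, which chance passes in about 1 of 20 groups. Mertk was 11 in N2ΔMy Ly6Chi Sham replicate 1, below 15 in each of the other 3. Axl was 409 in wt Ly6Chi IMQ replicate 3, above 241 in the next. Stab1 was 8 in wt Ly6Clo replicate 4, below 19 in the next. Gas6 was 6 in wt Ly6Chi IMQ replicate 4, with 1, 0 and 0 in the others. The other 3 were single libraries above 0 in groups otherwise at 0, with Gas6 at 1 in N2ΔMy Ly6Chi Sham and 1 in N2ΔMy Ly6Chi IMQ, and Timd4 at 4 in wt Ly6Clo monocytes.

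The genotype difference after IMQ was larger in Ly6Clo than in Ly6Chi monocytes by 3.64 on the log2 scale for Mertk and by 2.61 for Stab1, both by the interaction term in limma. Its adjusted p was 0.0103 for Mertk and 0.00218 for Stab1, with 4 of 4 N2ΔMy Ly6Clo libraries above all 4 wt Ly6Clo libraries for each. Each call was kept in 25 of 27 alternative fits and lost within the second library number series (adjusted p = 0.432 for Mertk and 0.272 for Stab1), and further with no filter for Mertk (0.0517) and with all 24 libraries in 1 fit for Stab1 (0.0818).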

How the results depend on the processing

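Of 22 called member differences, 9 kept their call in every alternative run: Axl (wt) and Stab1 (N2ΔMy) with IMQ, Axl, Cd36 and Stab1 between the subsets in wt, Mertk and Cd36 between the subsets in N2ΔMy, and Mertk and Stab1 between the genotypes in Ly6Clo monocytes. Over 434 alternative fits of the called differences, 369 kept the call, 65 lost it and 0 reversed. The most calls were lost with no filter on low values (11 of 22; 28578 genes tested) and within the second library number series (11 of 22; 2 libraries a group).

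The other 13 calls were kept as follows. For IMQ in wt, Cd36 was called in 7 of 19 alternative fits, Mfge8 in 11 and Stab1 in 17, and for IMQ in N2ΔMy, Mertk in 13, Axl in 17 and Mfge8 in 12. Between subsets, Mfge8 was called in 11 in wt and 17 in N2ΔMy, and Axl in 11 in N2ΔMy. Between genotypes in Ly6Clo monocytes, Axl was called in 17 and Cd36 in 15, and the interactions of Mertk and Stab1 in 25 of 27 each.

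With no filter, 1 member was called for IMQ in wt (795 genes in all), 2 in N2ΔMy (685), 2 between subsets in N2ΔMy (1512), 2 between genotypes in Ly6Clo monocytes and 1 for the interaction of genotype and subset (80). All genes called were then 215 between genotypes in Ly6Clo monocytes, 8 in Ly6Chi monocytes after IMQ, 7 after Sham and 1 for the interaction of genotype and treatment. Within the second series, 1 member was called for IMQ in each genotype and 0 for the interaction of genotype and subset, and all genes called were 592 for IMQ in wt, 813 in N2ΔMy, 180, 1 and 1 between genotypes in Ly6Clo, Ly6Chi IMQ and Ly6Chi Sham cells, and 18 for that interaction. Within the first series 1 gene was called between genotypes after Sham.

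With the replicate block, all genes called between genotypes were 939 in Ly6Clo and 54 in Ly6Chi monocytes after IMQ (1 member, Cd36), and 271 for the interaction of genotype and subset. With the series as covariate they were 830, 29 (1 member) and 210. Beside Cd36 after IMQ, Axl for the interaction and Pros1 in the F-test, the replicate block changed no call of a member. Without a trend, 0 genes were called between Ly6Chi genotypes after IMQ and 1 after Sham, where a floor of 1.1 gave 1 too. With all 24 libraries in 1 fit, 15 genes were called between Ly6Chi genotypes after IMQ and 1 member for the interaction of genotype and subset (161 genes in all).

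Leaving out 1 library gave 2 to 4 called members for IMQ in either genotype (847 to 1091 genes in all in wt and 768 to 907 in N2ΔMy), and 0 to 4 genes between Ly6Chi genotypes after IMQ, 1 to 2 after Sham and 75 to 173 for the interaction of genotype and subset. For Stab1, the Sham genotype difference of 1.19 was 2.47 within the first series and -0.089 within the second. Its interaction of genotype and treatment, at -0.45, was -2.04 within the first series and 1.14 within the second. With 1 library left out this interaction was -0.76 to 0.32 (positive without wt Sham replicate 2). The cause of these changes was not tested. Depth leaves Gas6, Timd4 and wt Ly6Clo Mertk near the counting floor; TMM scaling moved the median gene of a library by at most 0.0332 (log2).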
